A study of Homo sapiens with 4 samples.

Results

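The 721 genes described here lie on human chromosome 17 (GRCh37, 81195210 bases) and were selected on measured values, as those whose FPKM averaged 1 or more across the 4 libraries. FPKM counts fragments per kilobase of transcript and per fixed number of sequenced fragments, so it takes out transcript length and library size. They were taken from 2689 chromosome 17 entries and from 12491 genes that passed the same minimum in the whole genome. The other 1968 entries lay below it, and 1051 of these were listed at 0 in every library. The short arm (17p) held 218 members and the long arm (17q) held 503, separated by the centromere gap from 22263007 to 25263006. By biotype, 640 members were protein-coding, 46 were lncRNA genes, 20 were pseudogenes, 14 were small RNA genes, and 1 had another annotation. RNA-seq libraries labelled as total RNA had been made from 2 WT libraries and 2 C/EBPbeta enh-/- libraries of cells labelled HepG2, a human liver cancer line grown in medium with serum. In C/EBPbeta enh-/- cells, both alleles of an enhancer of CEBPB had been deleted with CRISPR/Cas9, and a blank CRISPR/Cas9 vector is also named in the labels. The sources used here do not say whether the 2 libraries of a genotype came from separate cultures or clones, so every p measures the spread between libraries, which may be technical. The extraction text of the labels describes chromatin immunoprecipitation and names no RNA library kit.

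Human chromosome 17 is rich in genes for its size. Its long arm carries ERBB2, BRCA1, the HOXB homeobox cluster, the type I keratin genes, the CC chemokine genes and the schlafen genes. The RNA level of a long row of genes can be read along a chromosome in the same way as that of a single gene, by setting each gene's change against the change of all genes.

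Promoter sequence is shown for the 2 single members with the largest falls past the test threshold and for the start region shared by an opposed pair that both passed it, since these are the start regions of genes whose own falls passed the test. The sequences are those of RefSeq promoters, matched exactly to GRCh37 and restricted to stretches outside annotated exons. They run 5′ to 3′ on the strand of the named gene (of ACBD4 for the pair), in lower case with CpG dinucleotides in capitals. The SLFN11 stretch is chr17:33700721-33700890 (minus strand), the LGALS3BP stretch is chr17:76976030-76976255 (minus strand), and the ACBD4 and PLCD3 stretch is chr17:43209886-43209966 (plus strand).
SLFN11: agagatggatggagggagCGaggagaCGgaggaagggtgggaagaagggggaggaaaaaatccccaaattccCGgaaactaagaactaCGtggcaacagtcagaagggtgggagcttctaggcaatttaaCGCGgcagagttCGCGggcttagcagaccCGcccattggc
LGALS3BP: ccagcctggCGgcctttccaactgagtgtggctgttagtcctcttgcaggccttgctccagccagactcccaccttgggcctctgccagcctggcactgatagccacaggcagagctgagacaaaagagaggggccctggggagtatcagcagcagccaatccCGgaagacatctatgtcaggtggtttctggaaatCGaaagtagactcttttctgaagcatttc
ACBD4 and PLCD3: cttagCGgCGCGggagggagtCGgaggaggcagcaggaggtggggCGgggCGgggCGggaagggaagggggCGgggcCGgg
The LGALS3BP stretch held 3 CpG in 226 bases, the SLFN11 stretch held 9 in 170, and the ACBD4 and PLCD3 stretch held 9 in 81. GC content was 55.8%, 55.9% and 80.2%, respectively. The RefSeq first bases of ACBD4 (43209986, plus strand) and PLCD3 (43209882, minus strand) face away from each other, with 103 bases between them.

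CEBPB, the gene on which the deleted enhancer acts, stood at 30.6 (WT 1), 19.2 (WT 2), 12.4 (C/EBPbeta enh-/- 1) and 11.8 FPKM (C/EBPbeta enh-/- 2) (log2 difference −0.94, limma adjusted p = 0.125), so both C/EBPbeta enh-/- values lay below both WT values but the difference did not pass the threshold of 0.05. Of 24 liver markers, 23 stayed under 1 FPKM in every library, ALB among them, and only VTN reached 1 in any, so the labelled liver identity was not borne out by these markers. Among 5 epithelial markers, KRT18 (416 and 461 in WT against 155 and 148 in C/EBPbeta enh-/- libraries) and KRT8 (231 and 335 against 82.6 and 90.0) made up nearly the whole summed level of 648 and 797 against 238 and 238. CDH1 and EPCAM, which define epithelial cells, were below 0.01 in every library. The summed level of 5 fibroblast markers, mostly VIM, was 253 and 332 against 205 and 157. Of the others, THY1 and COL1A2 did not exceed 0.104 in any library. COL1A1, itself on chromosome 17, overlapped (15.5 and 11.4 against 10.1 and 14.9), and CDH2 was lower (5.05 and 12.2 against 4.53 and 3.69). Both sums were thus lower in C/EBPbeta enh-/- libraries, as were the members of chromosome 17, and their part in the results was not tested. The libraries held a total FPKM from 484072.7 to 614111.2, and the spacing of low values gave roughly 21800000 fragments in C/EBPbeta enh-/- library 1 and 39500000 to 48400000 in the others. These depths are rough, because at most 39.8% of low values lay no further from a whole fragment count than 10% of 1 fragment.

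As a group, genes of chromosome 17 had lower RNA levels in C/EBPbeta enh-/- cells. The 721 members had a median FPKM of 12.1 (WT 1), 12.5 (WT 2), 9.0 (C/EBPbeta enh-/- 1) and 8.2 (C/EBPbeta enh-/- 2). Over all 12491 genes the corresponding medians were 9.77, 9.84, 8.93 and 8.23. Hence the members stood above the typical gene in both WT libraries and level with it in both C/EBPbeta enh-/- libraries. For each gene, the mean log2(FPKM + 1) of the WT libraries was subtracted from that of the C/EBPbeta enh-/- libraries, and the median of all genes (−0.14) was then taken off. The result is called the relative difference below, and it understates the change of genes of low FPKM. In bulk RNA, fewer cells that express a gene and less RNA per cell cannot be told apart. The median relative difference of chromosome 17 was −0.34, with quartiles of −0.59 and −0.07, and 575 of 721 members (79.8%) lay below 0. Since the region was chosen for this contrast, these medians are descriptions and carry no test. A mean below 1 FPKM in C/EBPbeta enh-/- cells alone was found in 37 members and in WT cells alone in 3, and of the other 681 members 540 lay below 0.

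The libraries did not overlap in chromosome 17 as a whole. In the 4 comparisons of a C/EBPbeta enh-/- library with a WT library, the median of the members ran from −0.35 to −0.29 relative to all genes. Between the WT libraries the same median was 0.03, and between the C/EBPbeta enh-/- libraries it was 0.03. Both C/EBPbeta enh-/- values were below both WT values in 462 members (64.1%), against 37.5% of all genes tested, and above both in 16 members (2.22%), against 15.1%. After each library was centred on its own median, 367 members (50.9%) were lower in both libraries, against 25.2% of all genes, and 42 (5.83%) were higher, against 28.1%. These shares were not particular to chromosome 17. Chromosomes 13 and 21, which had medians of similar size, held 212 and 122 tested genes. Both C/EBPbeta enh-/- values were below both WT values in 67.5% and 64.8% of them. The same held for 60.6% of the 795 genes of chromosome 2 (median −0.30), 59.7% on chromosome 14 (−0.25) and 57.8% on chromosome 22 (−0.27). With libraries centred, it held for 49.7% on chromosome 2. The 4 comparisons gave −0.41 to −0.28 for chromosome 13, a range that includes the whole range of chromosome 17.

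The same sign was seen at every level of expression. The median relative difference was −0.25 in 195 members with a mean FPKM from 1 to 5, −0.31 in 309 members from 5 to 20, −0.39 in 178 members from 20 to 100 and −0.38 in 39 members of 100 or more. Genes of all other chromosomes had 0.07, 0.02, −0.03 and −0.08 in the same bins. Among the 526 members of 5 FPKM or more, the median ratio of mean FPKM in C/EBPbeta enh-/- to WT was 0.693 (quartiles 0.575 and 0.832), and it was 0.901 in the 8013 other genes of that level. The ratio was 0.642 on 17p and 0.710 on 17q. It was below 0.5 in 66 of the 526 members (12.5%) and above 2 in 1 (0.19%), against 7.04% and 1.6% of the other genes of that level. Protein-coding members (−0.34), lncRNA members (−0.32), pseudogenes (−0.13) and small RNA genes (−0.60) all had a median below 0, as did members on the plus strand (−0.33) and on the minus strand (−0.34). The GC content of transcripts differed between the groups: 52.7% of the members and 31.3% of the other genes belonged to the tertile of genes with the highest GC. The medians of members and other genes were −0.38 and −0.02 within that tertile, and −0.27 and 0.06 within the tertile with the lowest GC.

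Both arms were lower. The median was −0.39 on 17p (quartiles −0.65 and −0.09) and −0.30 on 17q (quartiles −0.56 and −0.06), with 177 of 218 and 398 of 503 members below 0. In the 4 comparisons between genotypes, 17p ran from −0.41 to −0.33 and 17q from −0.33 to −0.28. The median of 17p was lower than that of 17q in each of the 4, by −0.12 to −0.04, and between libraries of 1 genotype it differed by 0.02 (WT) and −0.05 (C/EBPbeta enh-/-). The smallest of the 4 gaps between the arms was therefore within the gap between the C/EBPbeta enh-/- libraries.

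In windows of 10 Mb, numbered from the end of 17p, each gene was placed by its annotated start. Window 1 (141 members) had a median of −0.40 and window 2 (70 members) had −0.41, the lowest of the chromosome. Window 3, which spans the centromere, held 57 members and had the highest median, −0.22. Windows 4, 5 and 6 on 17q had −0.37 (60 members), −0.30 (149 members) and −0.28 (49 members). Windows 7, 8 and 9 had −0.29 (45 members), −0.30 (130 members) and −0.39 (20 members, the partial window at the end of 17q). In every window at least 68.9% of members lay below 0, and the share was highest in window 9 (90.0%). Among the 227 windows of the genome with at least 20 tested genes, 112 had a median below 0 and the range was −0.75 to 0.56. The 9 windows of chromosome 17 ranked from 18th to 49th lowest.

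**Figure D1:**
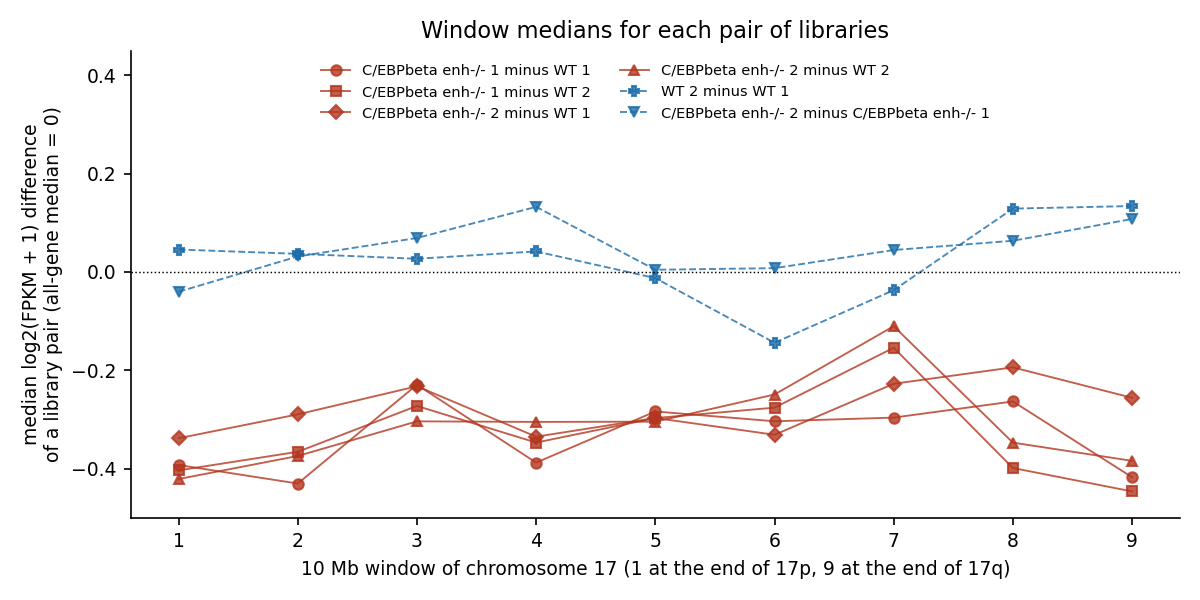
Median log2(FPKM + 1) difference, relative to all genes, in each 10 Mb window of chromosome 17 for the 4 pairs of libraries between genotypes (red, solid lines) and the 2 pairs within a genotype (blue, dashed lines). The pairs between genotypes lie from −0.45 to −0.11, and those within a genotype from −0.14 to 0.13.

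Window 3 ran from −0.30 to −0.23 over the 4 comparisons, which share libraries, and window 2 from −0.43 to −0.29, so the highest and the lowest window overlapped. Window 1 ran from −0.42 to −0.34 and did not overlap window 3. Windows 7 (−0.30 to −0.11), 8 (−0.40 to −0.19) and 9 (−0.45 to −0.26) had the widest ranges. In window 6 the lowest value within a genotype was −0.14, which lay above the highest value between genotypes (−0.25). With the window borders moved by 5 Mb, the medians of 9 windows ran from −0.50 to −0.25, the lowest being that of the 63 members in the first 5 Mb of 17p.

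Lower medians were found along the whole chromosome. A running median over 31 neighbouring members was below 0 at all 691 positions, from −0.56 around ANKFY1 on 17p to −0.06 around SNORA38B on 17q. The correlation of a member's relative difference with that of the next member was 0.07 over 720 pairs, and on other chromosomes it was 0.03 to 0.40 (median 0.14). Neighbours share a library, and overlapping genes share reads. The first member, RFLNB, had a relative difference of −0.72, and the last, METRNL, had −0.65. LINC02693, the last member before the centromere gap, was near 0 (−0.04), and WSB1, the first after it, was above 0 (0.58). WSB1, an adaptor of a ubiquitin ligase, had an FPKM of 31.7 and 17.3 in WT and 32.2 and 32.2 in C/EBPbeta enh-/- libraries. Its WT libraries differed more from each other than library 1 of WT did from C/EBPbeta enh-/- cells.

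**Figure D2:**
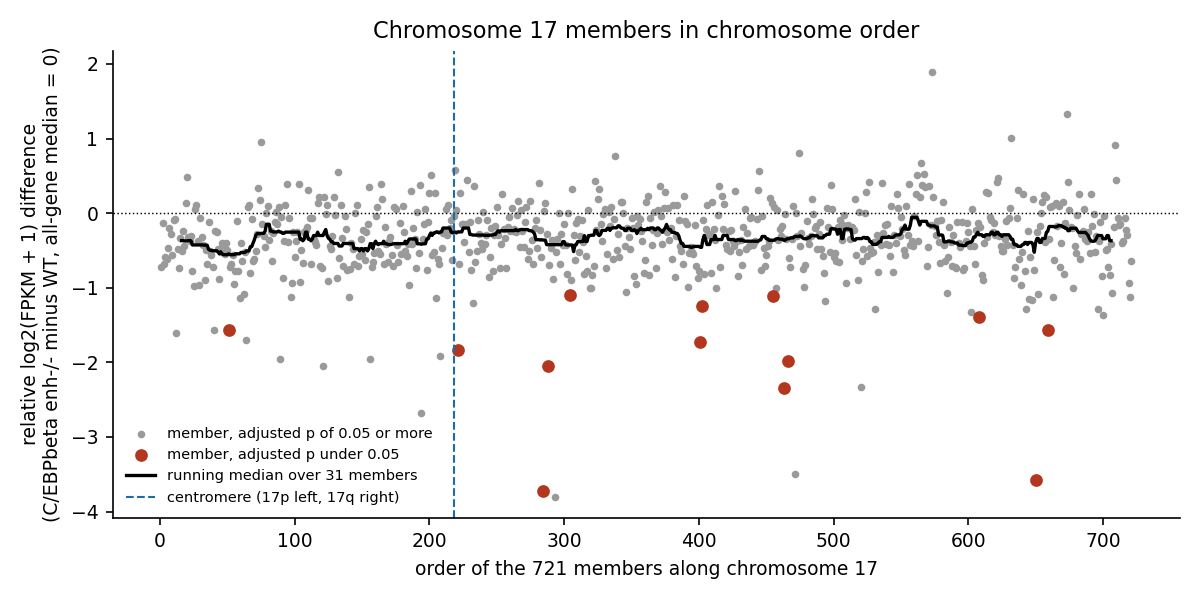
Relative log2(FPKM + 1) difference of each of the 721 members in the order of their starts along chromosome 17, with members past the limma threshold in red, the running median over 31 members in black and the centromere as a dashed line. The running median stays below 0 from the first to the last position, between −0.56 and −0.06.

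The longest unbroken row of members below 0 was on 17p and held 37 genes, from TSR1 to ZNF232-AS1 (starts from 2239951 to 5000518), with a median of −0.54. PFN1, which encodes the actin-binding protein profilin 1, was the most abundant of them, at 224 and 392 in WT and 204 and 203 in C/EBPbeta enh-/- libraries. PSMB6, a catalytic subunit of the proteasome, was at 180 and 196 in WT and 116 and 115 in C/EBPbeta enh-/- libraries. KIF1C, a kinesin motor, was at 53.6 and 85.2 against 36.3 and 49.0, and PAFAH1B1, a regulator of dynein, was at 67 and 62.9 against 45.7 and 41.5. In each of these 4 both C/EBPbeta enh-/- values lay below both WT values, as in 64.1% of all members and 37.5% of all genes. The row was defined by lying below 0 in these same data, so the 4 genes are no separate support. Without WT library 2, the relative difference of PFN1 was 0.00037. None of the 4 passed the limma threshold on its own. A row of 21 genes on 17q, from FDXR to LLGL2, also lay below 0 throughout (median −0.43). The longest row above 0 held only 5 genes, from ARSG to ABCA8 on 17q (median 0.37). It included PRKAR1A, the regulatory subunit of protein kinase A, at 113 and 111 in WT and 149 and 144 in C/EBPbeta enh-/- libraries (log2 difference 0.39, standard error 0.20, limma adjusted p = 0.323). It also included SLC16A6, a monocarboxylate transporter family member, at 20.3 and 17.3 against 28.1 and 27.2.

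Single genes were tested with limma on log2(FPKM + 1) over all 12491 genes, against no change and not against the chromosome's median. In C/EBPbeta enh-/- cells, 13 members (1.80%) were lower at an adjusted p under 0.05, against 1.21% of all genes tested, and 0 were higher, against 0.248% of all genes. At an unadjusted p under 0.05, 259 members (35.9%) were lower, against 16.9% of all genes, and 5 (0.693%) were higher, against 3.86%. With the libraries centred on their medians, 6 members were lower and 0 were higher. The count of calls depended on every library: 1 member was lower without WT library 1, 1 without WT library 2, 2 without C/EBPbeta enh-/- library 1 and 4 without C/EBPbeta enh-/- library 2, where the lone library of a genotype was assumed to vary like the others. The relative differences of the 13 genes kept their sign in all 4 of these fits, from −1.12 to −1.10 in ITGA3, −1.62 to −1.50 in GAA, −1.64 to −1.46 in ARRB2, −3.71 to −3.45 in LGALS3BP and, most widely, −2.75 to −1.93 in ACSF2. Over the alternative fits that included each gene, the call was lost in 3 of 16 for LGALS3BP, 2 of 16 for SLFN11, 6 of 16 for GAA, 6 of 14 for SLFN13 and 7 of 16 for ARRB2 and for ACSF2. It was lost in 10 of 15 for ABCC3, 11 of 16 for ACBD4 and for PLCD3, 11 of 15 for UNC13D and for LYRM9, and 12 of 16 for ITGA3 and for MIEN1. In 4 of the 13 (SLFN11, SLFN13, ABCC3 and UNC13D) the mean of the C/EBPbeta enh-/- libraries was below 1 FPKM, so they met the selection limit only through the WT libraries, where they are high, and had to differ. With 2 libraries against 2, an exact two-sided permutation test of 1 gene cannot give a p below 0.333.

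**Figure D3:**
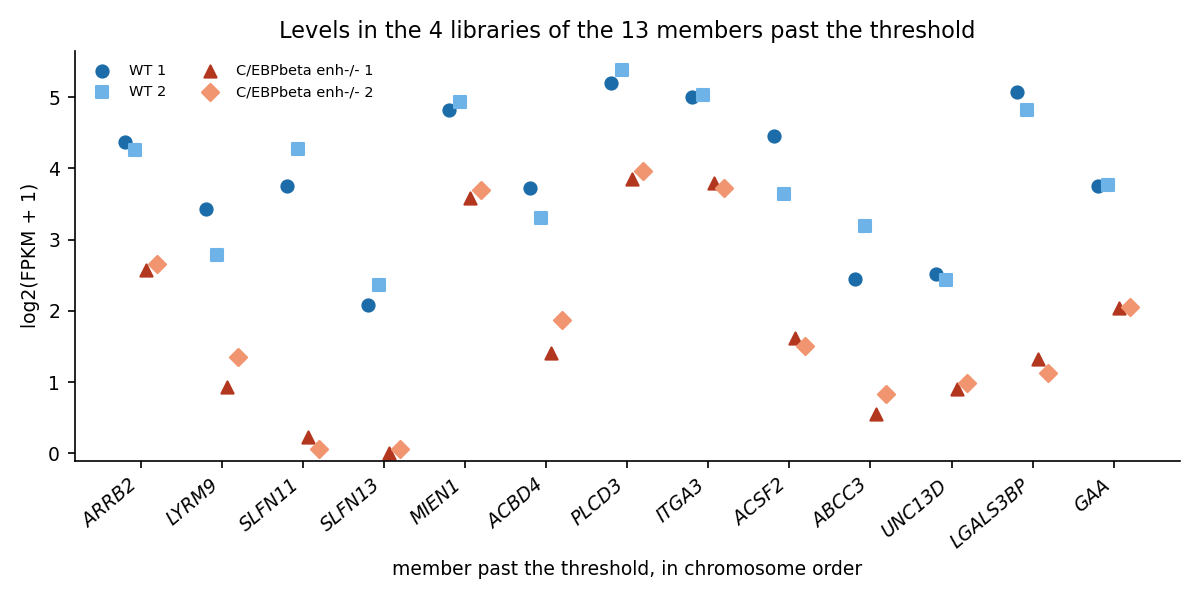
Level, as log2(FPKM + 1), in each of the 4 libraries of the 13 chromosome 17 members with a limma adjusted p under 0.05, in chromosome order, with WT in blue and C/EBPbeta enh-/- in red and orange. In all 13 both C/EBPbeta enh-/- points lie below both WT points, with the widest gaps in SLFN11 and LGALS3BP.

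LGALS3BP encodes a secreted glycoprotein that binds galectin-3. It was at 32.7 and 27.3 FPKM in WT and at 1.5 and 1.19 in C/EBPbeta enh-/- libraries. It fell by 3.72 on the log2 scale (standard error 0.23, limma adjusted p = 0.0017). The 8 other members within 0.5 Mb of it had a median relative difference of −0.68. GAA, the lysosomal acid alpha-glucosidase, was at 12.4 and 12.6 in WT and 3.10 and 3.17 in C/EBPbeta enh-/- libraries. It fell by 1.71 (standard error 0.21, limma adjusted p = 0.0208), while the 12 other members within 0.5 Mb had a median of 0.04. UNC13D, which primes cytotoxic granules for release, was at 4.71 and 4.39 in WT and 0.874 and 0.981 in C/EBPbeta enh-/- libraries (limma adjusted p = 0.0399). These 3 genes lie on the part of 17q from 70 to 80 Mb (window 8), each more than 1 Mb from the others.

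The schlafen family gave 2 of the 13. Schlafen genes encode regulators of RNA and of DNA replication, and SLFN11 blocks stressed replication forks and cleaves transfer RNA. SLFN11 was at 12.5 and 18.3 in WT and 0.177 and 0.0394 in C/EBPbeta enh-/- libraries. It fell by 3.87 on the log2(FPKM + 1) scale (standard error 0.27, limma adjusted p = 0.00288). SLFN13 was at 3.25 and 4.13 in WT libraries, and it was listed at 0 in C/EBPbeta enh-/- library 1 and at 0.0470 in library 2 (log2 difference −2.19, limma adjusted p = 0.0216). Both genes lie within 98.5 kb. Of the members between them, SLFN12 was at 4.43 and 7.68 in WT and 3.83 and 4.48 in C/EBPbeta enh-/- libraries, so its genotypes overlapped. SLFN5, which lies just before SLFN11, was at 17.3 and 5.39 against 7.44 and 4.09 and also overlapped. The 12 other members within 0.5 Mb of SLFN11 had a median of −0.25.

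ACBD4 and PLCD3, the opposed pair whose shared start region is printed above, fell together. ACBD4, an acyl-CoA-binding protein of peroxisomes, was at 12.2 and 8.85 in WT and 1.66 and 2.67 in C/EBPbeta enh-/- libraries (log2 difference −1.87, limma adjusted p = 0.0325). PLCD3, a phospholipase C, was at 35.7 and 40.7 in WT and 13.4 and 14.5 in C/EBPbeta enh-/- libraries (log2 difference −1.39, limma adjusted p = 0.035). Their annotated spans overlap, and the strand of the libraries is not given in the sources used here, so reads in the overlap cannot be assigned to 1 gene. NMT1, whose annotated end overlaps PLCD3, had a relative difference of −0.71 without passing the threshold.

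ITGA3, ACSF2 and ABCC3 lie within 636 kb of 17q. ITGA3, the alpha-3 integrin subunit, was at 31.1 and 31.5 in WT and 12.9 and 12.2 in C/EBPbeta enh-/- libraries (log2 difference −1.25, limma adjusted p = 0.0431). ACSF2, an acyl-CoA synthetase, was at 21.0 and 11.5 against 2.07 and 1.85 (log2 difference −2.49, limma adjusted p = 0.0208). ABCC3, an export pump for organic anions, was at 4.45 and 8.09 against 0.471 and 0.788 (log2 difference −2.12, limma adjusted p = 0.0334). The 9 other members of this span had a median relative difference of −0.22, from −1.0 to 0.09. Of these 9, 5 were lower without overlap, beside 64.1% of all members and 37.5% of all genes. The 3 genes were set apart from these 9 by passing the threshold on the same values, so their larger falls are no separate result.

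The remaining calls were LYRM9, ARRB2 and MIEN1. By arm, 1 of 218 members was called on 17p (0.459%) and 12 of 503 on 17q (2.39%), against 1.21% of all genes. ARRB2, which encodes beta-arrestin 2, was the only one on 17p, at 19.7 and 18.1 in WT and 4.94 and 5.31 in C/EBPbeta enh-/- libraries (log2 difference −1.70, limma adjusted p = 0.0208). It lies in the long row below 0, and 19 other members within 0.5 Mb had a median of −0.56. LYRM9 was at 9.82 and 5.89 in WT and 0.899 and 1.54 in C/EBPbeta enh-/- libraries (limma adjusted p = 0.038). MIEN1, whose annotated span lies almost wholly inside that of ERBB2 on the opposite strand, was at 27.2 and 29.5 against 11.0 and 12 (log2 difference −1.23, limma adjusted p = 0.0486). Reads in the shared stretch cannot be assigned to 1 of these genes without strand. ERBB2, a receptor tyrosine kinase, was at 12.9 and 14.4 against 4.87 and 8.60, with no overlap, and missed the threshold (limma adjusted p = 0.134).

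RefSeq promoters were matched for 538 members. The C/EBP core motif searched (TTGCNNAA, either strand, 250 bases before to 50 after the start) was found in 33 of them (6.13%), in 6.76% of 8924 promoters of other tested genes and in 10.6% of all 27305 promoters. The median relative difference was −0.27 in members with the motif and −0.34 in those without. It was in 0 of the 9 matched promoters of members past the threshold.

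Lists of genes on chromosome 17 were then compared by role. They were drawn up with earlier results of these data known, and are described by counts and medians beside the median of all members (−0.34). Counts of genes without overlap stand beside the 64.1% of all members and the 37.5% of all genes that were lower in both libraries, and a share near 64.1% is that of the chromosome and not particular to a list. The 6 cytosolic ribosomal protein genes were lower in both C/EBPbeta enh-/- libraries without exception, with a median of −0.60, and 0 passed the limma threshold. RPL26 was at 1589 and 1593 in WT and 848 and 920 in C/EBPbeta enh-/- libraries (log2 difference −0.85, limma adjusted p = 0.0837). RPL19 was at 1333 and 1378 in WT and 726 and 810 in C/EBPbeta enh-/- libraries. RPL23A (896 and 944 against 563 and 634) and RPL23 (803 and 930 against 538 and 553) also did not overlap. The 73 ribosomal protein genes of other chromosomes had a median of −0.16, and 53 of them were lower in both libraries.

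Other lists of the protein machinery had medians from −0.51 to −0.30, and 0 of their genes passed the limma threshold. Of 7 mitochondrial ribosomal protein genes, 6 did not overlap between genotypes (median −0.45). MRPS23 was at 66.3 and 64.9 against 43.6 and 41.0, MRPS7 at 48.8 and 58.6 against 35.5 and 35.0, and MRPL58 at 39.2 and 32.3 against 22.7 and 19.7. MRPL27 overlapped, at 49.6 and 67.3 against 53.5 and 37.7. Of 4 translation initiation factors, 2 did not overlap (median −0.51). EIF4A1, the RNA helicase that unwinds mRNA, was at 471 and 681 against 324 and 321, and EIF5A was at 205 and 258 against 100.4 and 129 (log2 difference −1.01, limma adjusted p = 0.0896). EIF4A3 (relative difference −0.34) and EIF1 (−0.23) overlapped. Of 5 proteasome subunits, 3 did not overlap (median −0.30), with PSMB6 lowest (−0.56) and PSMD11 (−0.36), PSMD12 (−0.29) and PSMD3 (−0.30) near the median of the chromosome.

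In fatty acid and phospholipid metabolism, 9 of 10 genes did not overlap, all lower (median −0.37), and ACSF2 passed. ACLY, which makes cytosolic acetyl-CoA from citrate, was at 86.5 and 113 in WT and 50.7 and 56.4 in C/EBPbeta enh-/- libraries (log2 difference −0.87, limma adjusted p = 0.11). FASN, the fatty acid synthase, was at 34.8 and 47.9 against 15.7 and 26.2. SREBF1, a transcription factor of lipid synthesis, was at 30.6 and 31.7 against 26.3 and 24.8, and ACADVL, which starts the oxidation of very long chains, was at 220 and 228 against 155 and 191. ACADVL and SREBF1 changed less than the typical member (relative differences −0.24 and −0.13).

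Lists of regulators and of the cell cycle sat closer to 0. The 25 cell cycle and DNA repair genes had a median of −0.10, with 13 that did not overlap, all lower, and 0 past the threshold. TOP2A, the topoisomerase of dividing cells, was at 101 and 105 in WT and 113 and 82.7 in C/EBPbeta enh-/- libraries. KPNA2 (72.1 and 110 against 119 and 78.2) and BIRC5, which encodes survivin (42.2 and 52.5 against 61.1 and 43.0), also overlapped, while TK1, the thymidine kinase of S phase, was at 69.7 and 93.8 against 40.9 and 33.9 (log2 difference −1.10, limma adjusted p = 0.0816). The 27 chromatin and Mediator genes had a median of −0.13, with 15 lower without overlap. CHD3, a chromatin remodeller, was at 53.4 and 55.0 against 23.8 and 37.0, and CBX1, a heterochromatin protein, at 53.6 and 49.2 against 34.3 and 33.6. H3-3B, a histone H3.3 gene, and SUPT4H1, an elongation factor, overlapped (relative differences −0.14 and 0.05). The 14 lysosome and autophagy genes had a median of −0.07 with 5 lower without overlap, GAA the only call. HGS (38.4 and 37.1 against 23.9 and 22.6) and VPS25 were among the 5, and GABARAP and GRN overlapped.

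Of 17 transcription factors, 11 were lower without overlap (median −0.28). RARA, a retinoic acid receptor, was at 8.72 and 5.24 in WT and 3.63 and 2.49 in C/EBPbeta enh-/- libraries (log2 difference −0.95, limma adjusted p = 0.148). STAT3 was at 30.0 and 36.5 against 25.8 and 14.9, MYBBP1A at 29.4 and 39.1 against 23.7 and 22.5, and NFE2L1 at 49.0 and 43.2 against 38.4 and 30.8. None of the 17 passed. Of 19 genes of kinase signalling, 12 were lower and 1, PRKAR1A, was higher without overlap (median −0.22). GRB2, an adaptor of receptor kinases, was at 52.5 and 48.7 against 38.0 and 32.5, and RPS6KB1, the S6 kinase, was at 23.4 and 19.0 against 15.8 and 16.6. YWHAE overlapped, at 123 and 145 against 126 and 103.

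Neighbourhoods that are often gained in tumours had medians on the same side of 0 as the chromosome. The 12 members around ERBB2 had a median of −0.32, with 9 lower without overlap, 0 higher and MIEN1 the only call. LASP1 was at 37.8 and 59.4 against 34.9 and 32.1, PSMD3 overlapped, and ORMDL3 was at 14.2 and 16.6 against 24.1 and 12.7. The 18 members of the 17q23 neighbourhood had a median of −0.22, with 13 lower without overlap and 0 past the threshold. CLTC, the clathrin heavy chain, was at 89.5 and 102 against 85.0 and 70.1, VMP1 overlapped, and SKA2 and DHX40 were lower without overlap (relative differences −0.10 and −0.20). The 5 HOXB members were of low level, with 3 lower without overlap (median −0.38). HOXB7 was at 8.07 and 7.36 against 8.61 and 4.87, and HOXB3, HOXB6 and HOXB9 had mean FPKM values from 1.10 to 1.74.

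The extracellular matrix and integrin list had 9 members and a median of −0.34. This median is the value of VMP1, an autophagy protein of the endoplasmic reticulum that the list holds although it is neither a matrix protein nor an integrin. LGALS3BP and ITGA3 passed, 5 were lower without overlap, and 1, VTN, was higher. MRC2, a collagen receptor, was at 111 and 88.3 in WT and 24.3 and 54.3 in C/EBPbeta enh-/- libraries (limma adjusted p = 0.111), and ITGAE was at 24.6 and 26.4 against 20.3 and 18.2. P4HB overlapped, at 143 and 186 against 179 and 132. VTN, which encodes vitronectin and is the only one of 10 liver-typical genes of chromosome 17 that entered the set, was at 0.864 and 0.800 against 1.44 and 1.11. Among 27 type I keratins only KRT10 and KRT17 entered, at 5.53 and 5.35 against 2.55 and 2.63, and at 190 and 459 against 359 and 367, respectively. Among 18 CC chemokines only CCL2 entered, at 2.16 and 2.13 against 0.448 and 1.18.

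Few members were higher without overlap. With libraries centred on their medians, they were 42 of 721 (5.83%), against 28.1% of all genes. On the FPKM values without centring, 361 of the 526 members of 5 FPKM or more (68.6%) were lower without overlap. This compares with 40% of all genes of that level. On the same values 8 (1.52%) were higher, against 13.6%, and 0 of the 8 passed the limma threshold. SSTR2, a somatostatin receptor, was at 4.04 and 2.25 in WT and 7.75 and 20.3 in C/EBPbeta enh-/- libraries (log2 difference 1.75, standard error 0.44, limma adjusted p = 0.1). MGAT5B, a glycosyltransferase, was at 5.41 and 5.28 against 9.05 and 12.3. CALCOCO2, an autophagy receptor, was at 39.8 and 24.1 against 41.5 and 42.5, and FBF1 was at 7.03 and 8.09 against 8.10 and 8.75. NME1-NME2 was at 8.21 and 7.31 against 16 and 10.4, and as a readthrough of NME1 and NME2 it shares their reads and is uncertain.

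Several of the largest falls that did not pass the threshold are uncertain. TRIM16 was at 30.8 and 58.7 in WT and 6.30 and 13.2 in C/EBPbeta enh-/- libraries, and TRIM16L at 50.3 and 111 against 5.65 and 16.3 (limma adjusted p = 0.0657 and 0.0581). They are near-identical copies on 17p, and reads may have been split between them. SNORA21 (the copy of that name from 37009116 to 37009247, at 69.4 and 80.9 against 0 and 23.5) and SCARNA20 (28.8 and 18.0 against 0 and 17.5) are small RNA genes, and both were listed at 0 in the shallowest library. CLDN7, a tight junction claudin, was at 23.1 and 5.56 in WT and 1.40 and 2.60 in C/EBPbeta enh-/- libraries. Other large falls per window were ALDOC (14.8 and 17 against 9.21 and 3.36), an aldolase of glycolysis, and SLC16A3 (105 and 159 against 64.2 and 47.9), the lactate exporter. In all, 7 members were listed at 0 in at least 1 library.

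At the selection limit, SP2-AS1 (mean FPKM 1.0, at 1.84 and 0.848 against 0.338 and 0.975) and LINC00674 (mean FPKM 1.01, at 0.779 and 0.730 against 1.42 and 1.12) were the members just inside. ENSG00000224738 (0.992) and EFCAB15P (0.978) were just outside.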

How the data were processed

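The authors deposited 1 FPKM value per gene and library, and counts were not used here. The submitters' processing notes name TopHat2 2.0.13, Cufflinks, edgeR and the build hg19, without their roles. The labels put all 4 libraries on 1 flow cell lane. Each file held 57815 entries, of which 57768 remained without pseudoautosomal copies. Genes were placed with GENCODE release 44 lifted to GRCh37 by their annotated start, and 293 of the 12491 tested genes had no annotation and count only in the all-gene median. FPKM is relative to library size, and the 5 highest genes held 18.8% to 35.1% of the total of a library. Genes averaging 1 FPKM or more were analysed as log2(FPKM + 1). The genotype comparison used limma 3.58.1 under R 4.3.3 (trend, two-sided, Benjamini-Hochberg over all 12491 genes, threshold 0.05), without the replicate number. The script was tested on simulated data. Same-numbered libraries did not deviate together (r = 0.0094 across genes), so the numbers were not taken as pairs. Named genes were the 12 members of smallest p past the threshold, the 8 largest falls and rises and the largest fall and rise of each window among members of mean FPKM of at least 5 whose genotypes did not overlap, the 4 most abundant and all called members of each list, RARA and ERBB2, and the members at the selection limit, the chromosome ends, the centromere and the longest row below 0. NMT1, ANKFY1, SNORA38B, FDXR, LLGL2, ARSG and ABCA8 were named after their values were seen. Another gene under this rule is left unreported. Members and lists were chosen with earlier results of these data known. Tables were made in pandas 2.3.3 and numpy 2.4.6, and figures in matplotlib 3.10.9, under Python 3.11.15.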

Additional observations from a re-analysis of the deposited data

How the results depend on the processing

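The lower median of chromosome 17 and of both arms kept its sign under every alternative run. With a pseudocount of 0.1 it was −0.37 on the chromosome, −0.43 on 17p and −0.34 on 17q, with a correction for GC and length −0.30 on the chromosome and −0.35 on 17p, and as a mean over genes −0.34 on 17q. Leaving out each library in turn gave −0.34 to −0.30 (chromosome 17), −0.40 to −0.31 (17p) and −0.32 to −0.27 (17q). The 9 window medians stayed below 0 in all 135 alternative values, from −0.50 to −0.19, and 35 of these moved by more than the spread between library pairs.

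The count of genes past the limma threshold was less stable. Against 13 lower members it was 5 with the GC and length correction, 6 with libraries centred on the median, 6 when rescaled to the same total and 5 when rescaled without ENSG00000259001, and 0 with no filter on low values (270 lower and 21 higher at an unadjusted p under 0.05). It was 24 after dropping genes at 0 in any library and 45 with protein-coding genes alone, where 1 member was higher. Leaving out each library gave 1 to 4 lower and 0 to 0 higher members. With the replicate block 9 members were lower and 0 higher, and 3 were lower once this block was combined with the GC and length adjustment. The cause of these changes was not tested.

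Of 97 named genes reported here, 20 changed the sign of their relative difference when a library was left out; none of them had passed the threshold. Over the 4 such fits their values ran as follows: EIF1 −0.73 to 0.28, GABARAP −0.080 to 0.11, GRN −0.14 to 0.62, H3-3B −0.43 to 0.18, HOXB7 −0.38 to 0.25, HOXB9 −0.81 to 0.069, KPNA2 −0.035 to 0.56, KRT17 −0.19 to 1.07, LINC02693 −0.35 to 0.27, MRPL27 −0.42 to 0.00097, ORMDL3 −0.067 to 0.72, P4HB −0.12 to 0.24, PFN1 −0.80 to 0.00037, PSMD3 −0.77 to 0.19, SLFN12 −0.61 to 0.064, SLFN5 −1.34 to 0.19, SUPT4H1 −0.20 to 0.32, TOP2A −0.12 to 0.24, VMP1 −0.75 to 0.082 and YWHAE −0.20 to 0.030. With the GC and length correction, with or without the replicate block, LINC02693 was at 0.021 and TOP2A at −0.034. Some named genes passed only under an alternative. TRIM16 and TRIM16L passed with the replicate block (limma adjusted p = 0.0217 and 0.00874) and after genes at 0 in any library were dropped (0.0383 and 0.0306), TRIM16L also with the block and the GC and length adjustment (0.0256). With protein-coding genes alone TRIM16, EIF5A, RPL19, RPL26, SLC16A3, SSTR2 and TK1 passed, and without C/EBPbeta enh-/- library 2 SNORA21 and SCARNA20 did. With 2 libraries per genotype the precision is limited by their number, and depth is known only approximately.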
